A study of Mus musculus with 12 samples.

Results

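The genes described here are 28 mouse genes of cholesterol and fatty acid synthesis, chosen by symbol. They comprise 18 sterol synthesis enzymes, 4 genes of sterol regulation and transport (Srebf1, Srebf2, Insig1 and Stard4) and 6 fatty acid enzymes (Acly, Acaca, Fasn, Elovl6, Scd1 and Scd2). All 28 were found among the 55573 genes of the deposited tables, and all 28 were among the 14226 genes that passed the filter on low counts. PB3, the line behind all 12 libraries, is a mouse breast cancer line labelled Er-/Pr-/Her2-, and its polyadenylated RNA was sequenced. There were 3 libraries each of the untreated PB3-Parental cells (Control) and of the drug-resistant derivatives PB3-ERI-R, PB3-PAC-R (paclitaxel) and PB3-VIN-R (vinorelbine). The agent of ERI-R is spelled Erubilin in one label and Eribulin in the protocol. All 3 agents act on microtubules and were given at 300, 500 and 800 nM to obtain resistant clones, and all groups were grown in DMEM/F12 with 5% ABS. How many clones stand behind a line is not given, and neither is whether the numbered replicates were grown separately. The p-values therefore reflect the spread of these libraries, which may be technical.

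Cells make cholesterol from acetyl-CoA through mevalonate, farnesyl diphosphate, squalene and lanosterol, and make fatty acids from the same precursor through malonyl-CoA. The transcription factors SREBP-1 and SREBP-2, encoded by Srebf1 and Srebf2, are held in the endoplasmic reticulum by Insig proteins when sterols are plentiful. They are released to the nucleus when sterols run low, where SREBP-2 acts mainly on sterol genes and SREBP-1 mainly on fatty acid genes. Cultured tumour cells commonly use both pathways to build membranes.

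The libraries held between 11141028 and 13454395 expected counts, and levels of a gene across libraries are given as CPM, relative to the TMM-scaled library total. Before any comparison of lines, the libraries differed in macrophage markers. Lyz2, the lysozyme of macrophages and granulocytes, had no count in 4 libraries (Control 1 and replicate 3 of each resistant line) and lay between 182 and 1399 CPM in the other 8 libraries. These are called Lyz2-negative and Lyz2-positive libraries below; they are sets of samples found in the data, not groups of the study. The summed level of 20 macrophage markers, all of which reached 1 CPM somewhere, was 24.8 to 167 CPM in the Lyz2-negative and 1174 to 7980 CPM in the Lyz2-positive libraries. Cd14 made up most of it in the Lyz2-negative libraries, at 17.3 to 163 CPM. Of 7 adipocyte markers none reached 1 CPM in any library, with Cidec, Lep and Cfd at 0 throughout. Among lymphocyte markers, Cd4 reached at most 1.92 CPM, and Cd3e and Klrb1c were at 0 in every library. Of 7 endothelial markers 4 reached 1 CPM, up to 10.2 CPM for Pecam1, with Cldn5 and Tie1 at 0. Mitochondrially encoded genes took 1.5 to 2.45% of counts in the Lyz2-negative and 3.22 to 4.35% in the Lyz2-positive libraries. Ribosomal protein genes took 16.7% of counts in ERI-R 3 and between 3.84 and 9.01% elsewhere. The receptor genes Esr1 and Erbb2 were detected at 5.04 to 14.3 CPM and 16.8 to 52.7 CPM, and Pgr at 1.99 to 8.59 CPM in ERI-R and below 1 CPM in the other 9 libraries. ERI-R libraries also differed from the other lines in Epcam, an epithelial adhesion molecule, at 228 to 243 CPM against at most 10.2 CPM elsewhere, and in Vim, a mesenchymal filament, at 19.1 to 275 CPM against 2251 to 4190 CPM.

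Compared per length, as the deposited TPM, the most abundant of the 28 genes in Control was Scd2, a stearoyl-CoA desaturase, at 515 ± 253 TPM (SD, n = 3). It was followed by Fdps, which makes farnesyl diphosphate, at 285 ± 197 TPM, and by Msmo1, a sterol methyl oxidase, at 184 ± 71.3 TPM. Scd1, the paralog of Scd2, stood at 144 ± 50.9 TPM and Insig1 at 131 ± 63.9 TPM in Control. The SDs of neighbours in this order overlapped. At the low end lay the sterol reductase Tm7sf2 at 8.31 ± 6.52 TPM, Mvd, the last enzyme of the mevalonate steps, at 12.01 ± 9.45 TPM, and mevalonate kinase, Mvk, at 16.2 ± 11.3 TPM. Scd2 and Scd1 lie on either side of Scd4 on chromosome 19 (GRCm38, GENCODE M21, 44293674 to 44306864 on the plus strand and 44394455 to 44407879 on the minus strand). Expected counts divide reads between close copies by estimate, which leaves the split between Scd1 and Scd2, and between Acat2 and its neighbour Acat3, uncertain.

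**Figure D1:**
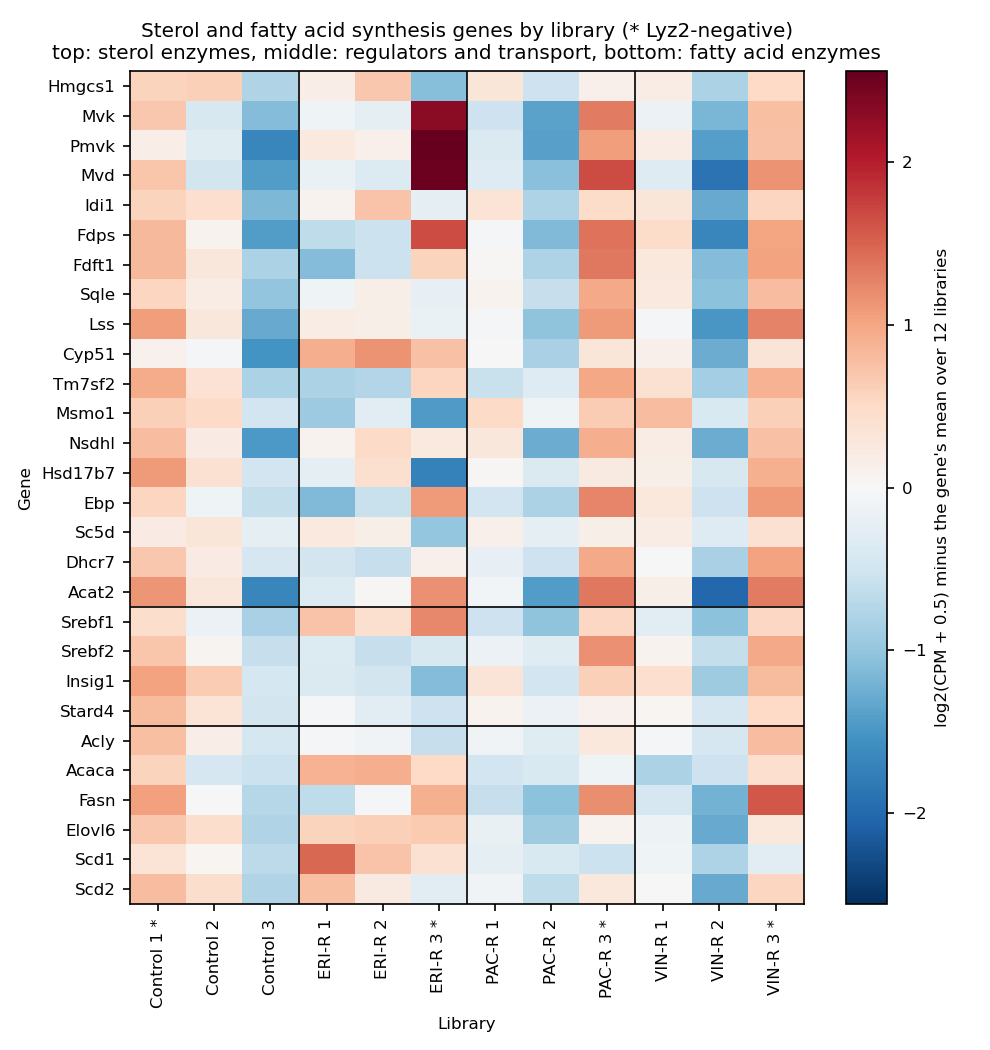
Heat map of the 28 genes (vertical axis) in the 12 libraries (horizontal axis, vertical lines part the 4 groups, * marks Lyz2-negative libraries); colour is log2(CPM + 0.5) minus the mean of the gene over the 12 libraries. Control 3, PAC-R 2 and VIN-R 2 are low across most genes, while Control 1, PAC-R 3 and VIN-R 3 are high, and ERI-R 3 is high for Mvk, Pmvk, Mvd and Fdps but low for Msmo1 and Hsd17b7.

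None of the 28 genes was called between a resistant line and Control in the edgeR quasi-likelihood test with Benjamini-Hochberg adjustment at 0.05 over all genes tested. In ERI-R against Control, where 9.51% of all genes tested were called higher and 9.69% lower, 0 of 28 were called. At an unadjusted p under 0.05 in edgeR, 2 of 28 were higher and 2 lower, beside 2293 higher and 2117 lower of the 14226 genes tested. DESeq2 called 2 higher, Cyp51 and Scd1, and 0 lower. The shares of all genes called by DESeq2 were not computed. The 18 sterol enzymes had a median log2 fold change of 0.00, from -1.09 for Msmo1 to 1.89 for Pmvk, the kinase after Mvk. The 6 fatty acid enzymes had a median of 0.19 and the 4 regulators and transport genes one of -0.60, beside 0.00 over all genes tested.

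In PAC-R against Control and in VIN-R against Control, edgeR called 0 of 28 genes, with 0 at an unadjusted p under 0.05 and 0 by DESeq2. In both comparisons 0% of all genes tested were called in either direction. At an unadjusted p under 0.05 in edgeR, 93 of the 14226 genes tested were higher and 152 lower in PAC-R. In VIN-R 128 were higher and 253 lower. Log2 fold changes of the 28 genes ran from -0.53 for the fatty acid elongase Elovl6 to 0.73 for Mvd in PAC-R, with SEs of 0.35 to 1.06. In VIN-R they ran from -0.50 for Elovl6 to 0.52 for Pmvk. PAC-R against VIN-R likewise gave 0 called genes with edgeR, 0 at an unadjusted p under 0.05 and 0 by DESeq2, again at a background of 0% in either direction. Of all genes tested, 113 were higher and 43 lower at that unadjusted p. With SEs of this size, 2-fold differences in many of these genes were not detectable.

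Scd1, which introduces the double bond of oleate and palmitoleate, was the 1 gene of the 28 called between lines in the fit with group means alone. It measured 1167, 704 and 557 CPM in ERI-R 1 to 3 and 540.3, 440 and 267 CPM in Control 1 to 3. It measured 361, 324 and 289 CPM in PAC-R and 391, 246 and 353 CPM in VIN-R. Every ERI-R library lay above every library of the other groups, by a narrow margin between ERI-R 3 and Control 1. The log2 fold change was 1.32 ± 0.37 (SE) against PAC-R (edgeR quasi-likelihood, adjusted p = 0.0281) and 1.3 ± 0.37 against VIN-R (adjusted p = 0.0296). Against Control it was 0.96 ± 0.36 with an adjusted p of 0.0953, and without ERI-R 3 it was called, at 1.31 (adjusted p = 0.0241). Scd1 made up the 1 of 28 genes called in each of the comparisons of ERI-R with PAC-R and VIN-R, beside backgrounds of 9.19% higher and 9.55% lower against PAC-R and 9.55% higher and 9.74% lower against VIN-R. The call against PAC-R was lost without ERI-R 1 or any 1 of the PAC-R libraries (log2 fold change from 0.97 to 1.67 over all libraries left out in turn). The call against VIN-R was lost without ERI-R 1, Control 2 or any 1 of the VIN-R libraries (0.94 to 1.63).

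Cyp51, the demethylase that acts on lanosterol, measured 419, 488 and 370 CPM in ERI-R and 239, 213 and 76.1 CPM in Control. PAC-R libraries had 218, 124 and 275 CPM and VIN-R libraries 243, 91.6 and 277 CPM of it. All 3 ERI-R libraries lay above the other 9, yet the log2 fold change against Control of 1.27 ± 0.51 had an adjusted p of 0.117 in edgeR. Msmo1, which acts after Cyp51 in the pathway, measured 83.03, 131 and 57.6 CPM in ERI-R and 243, 222 and 113 CPM in Control. It measured 224, 147 and 249 CPM in PAC-R and 277, 122 and 244 CPM in VIN-R. In Msmo1 ERI-R overlapped Control and VIN-R but lay below PAC-R, with log2 differences of -1.09 ± 0.44 against Control (adjusted p = 0.117), -1.19 ± 0.44 against PAC-R (adjusted p = 0.0926) and -1.24 ± 0.44 against VIN-R (adjusted p = 0.0776). Msmo1 was called lower against VIN-R by DESeq2, at -1.18 (adjusted p = 0.039), and by edgeR without VIN-R 2, at -1.53 (adjusted p = 0.0424).

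None of the 4 genes of sterol regulation and transport was called between lines in the fit of the 12 libraries with group means alone; Srebf1 was called once the kind of library was a term, as given below. Srebf1 measured 139, 111 and 197 CPM in ERI-R and 113, 74.8 and 46.5 CPM in Control, so the groups overlapped, and its log2 difference was 0.93 ± 0.52 (adjusted p = 0.262). Insig1, which retains the SREBPs and is itself one of their targets, measured 99.7, 93.6 and 59.7 CPM in ERI-R and 264, 203 and 94.4 CPM in Control. Its groups overlapped through Control 3, and its log2 difference was -1.15 ± 0.51 (adjusted p = 0.149). Srebf2 differed by -0.61 ± 0.51 (adjusted p = 0.481) and Stard4, a carrier of cholesterol between membranes, by -0.59 ± 0.35 (adjusted p = 0.294).

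**Figure D2:**
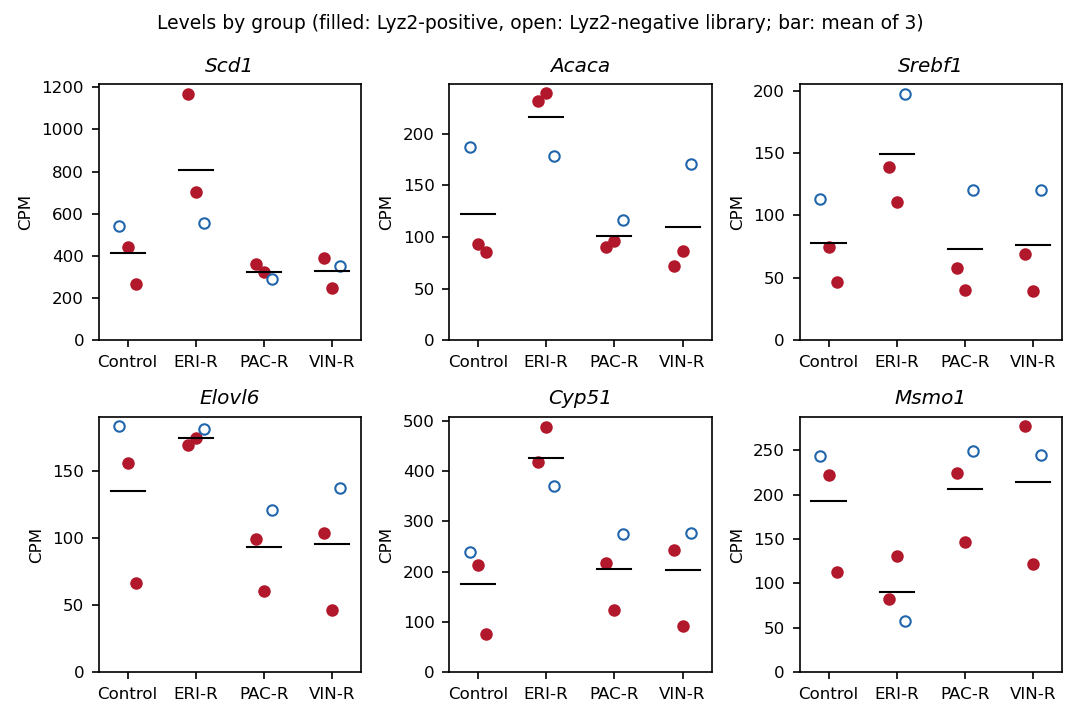
CPM (vertical axis, from 0) of Scd1, Acaca, Srebf1, Elovl6, Cyp51 and Msmo1 in the 4 groups (horizontal axis); each point is a library, filled for Lyz2-positive and open for Lyz2-negative, and the bar is the mean of 3. In Scd1 and Cyp51 all 3 ERI-R libraries lie above the other 9, at 557 CPM or more and at 370 CPM or more.

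With the 8 Lyz2-positive libraries alone, 2 per group, a pair of fatty acid enzymes was higher in ERI-R. Against Control, 2 of 28 genes were called higher and 0 lower (edgeR, 14388 genes tested, of which 12% were called higher and 10.7% lower). They were Acaca, which makes malonyl-CoA, at a log2 fold change of 1.5 ± 0.21 (adjusted p = 0.0019) and Scd1 at 1.51 ± 0.38 (adjusted p = 0.0237). Acaca measured 232 and 239 CPM in these 2 ERI-R libraries and 92.9 and 85.2 CPM in the Control libraries. The PAC-R libraries had 89.8 and 96.1 CPM of Acaca and the VIN-R libraries 71.9 and 86.5 CPM. Neither ERI-R library came near the 6 others. In the Lyz2-negative libraries Acaca measured 178 CPM in ERI-R 3, 187 CPM in Control 1, 117 CPM in PAC-R 3 and 170.3 CPM in VIN-R 3, so ERI-R did not stand apart there. In all 12 libraries Acaca had log2 fold changes of 0.83 ± 0.40 against Control (adjusted p = 0.183), 1.10 ± 0.40 against PAC-R (adjusted p = 0.0847) and 0.98 ± 0.40 against VIN-R (adjusted p = 0.121). It was called against PAC-R without ERI-R 3 (1.36, adjusted p = 0.0498) and by DESeq2 (1.16, adjusted p = 0.0267), and against VIN-R without VIN-R 3 (1.44, adjusted p = 0.0361).

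All 6 fatty acid enzymes had positive log2 fold changes against Control in the 8 libraries, with a median of 0.70 beside 0.01 over all genes tested. Of the 14388 genes tested, 7313 had positive values. In Acly, Fasn and Scd2 the ERI-R and Control libraries overlapped, while in Acaca, Elovl6 and Scd1 they did not. With 2 libraries per group such a separation carries little weight, and its share over all genes was not computed. Control 3, 1 of the 2 Control libraries here, was below Control 2 in 28 of 28 genes. The 18 sterol enzymes had a median of 0.39 and 0 calls. Against PAC-R, 3 of 28 were called higher (background 12.5% higher, 10.4% lower) and against VIN-R also 3 (background 12.9% higher, 11% lower), in both cases Acaca, Scd1 and Srebf1. Srebf1 had log2 fold changes of 1.46 ± 0.36 against PAC-R (adjusted p = 0.0221) and 1.29 ± 0.36 against VIN-R (adjusted p = 0.0337), and 1.15 ± 0.36 against Control (adjusted p = 0.0538). The 3 comparisons share the ERI-R libraries. In a fit of all 12 libraries with the kind of library as a term, 4 of 28 were called higher against Control: Pmvk at 1.52 (adjusted p = 0.0461), Cyp51 at 1.35 (adjusted p = 0.0498), Srebf1 at 0.97 (adjusted p = 0.0264) and Acaca at 0.96 (adjusted p = 0.0374), beside 14.6% of all genes higher and 16.7% lower. Pmvk was at 149.7 CPM in ERI-R 3 and at 29.8 and 27.6 CPM in the other 2 ERI-R libraries, and its log2 fold change in the 8 Lyz2-positive libraries was 1.16 (adjusted p = 0.286). In the fit with the term 3 of 28 were called higher against PAC-R (background 13.9% higher, 15.4% lower) and 3 against VIN-R (13.9% higher, 15.8% lower), in both cases Srebf1, Acaca and Scd1. It called 0 of 28 in PAC-R against Control (0.0141% higher, 0.00703% lower) and 0 of 28 in VIN-R against Control (0.00703% higher, 0.0141% lower). For ERI-R the shares of the 28 called higher were at or below the background of each fit.

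Related genes outside the 28 were taken from lists of 35 other sterol genes, of which 32 were tested, and 53 other fatty acid and lipid genes, of which 46 were tested. In ERI-R against Control 1 other sterol gene was called higher and 2 lower, and 5 of the lipid genes were called higher and 4 lower. Beside the 9.51% of all genes tested called higher and 9.69% lower, the shares of the lipid genes lay near the background and those of the sterol genes below it, so the genes named here do not set the lists apart. In PAC-R and in VIN-R against Control edgeR called 0 in both lists. Acacb, the isoform of acetyl-CoA carboxylase at the mitochondrial surface, had 0 counts over the Control libraries and 66 over the ERI-R libraries. Set against a floor of 3 counts over Control, the ERI-R level was 22.9-fold higher. The 95% counting interval of the ratio without the floor started at 18.1 (counting error only). Lpin3, a phosphatidate phosphatase, rose from 8 to 292 counts (log2 fold change 5.26 ± 0.98, adjusted p = 0.00378). Fabp5, a fatty acid carrier, rose from 59.5, 109 and 49.0 CPM in Control to 319, 322 and 952 CPM in ERI-R (2.88 ± 0.65, adjusted p = 0.0105).

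The falls named by the same rule were in acyl-CoA synthetases and in Soat1, which esterifies cholesterol. Acsl6 went from 530 counts over Control to 2 over ERI-R, a CPM ratio of 255 (95% counting interval 70.2 to 2110, counting error only). It measured 12.4 to 16.4 CPM in Control, 1.42 to 2.69 CPM in PAC-R and 2.01 to 4.35 CPM in VIN-R, so both these lines also lay below Control without overlap. Their log2 fold changes were -2.71 ± 0.48 (edgeR, adjusted p = 0.745) and -2.07 ± 0.47 (adjusted p = 0.614). Acsbg1 fell from 93.7, 70.8 and 82.0 CPM to 4.49, 2.82 and 1.68 CPM (log2 fold change -4.77 ± 0.44, adjusted p = 0.000331). Soat1 measured 112, 143 and 141 CPM in Control and 49.9, 31.2 and 5.77 CPM in ERI-R, without overlap (-2.19 ± 0.66, adjusted p = 0.042). The remaining calls in these lists fall outside the naming rule and are given after their values were seen. Hacd2 and Hacd3, dehydratases of fatty acid elongation, rose by 0.92 ± 0.29 (adjusted p = 0.0482) and 0.85 ± 0.22 (adjusted p = 0.0217) on the log2 scale, and Acat1, the mitochondrial thiolase, by 0.78 ± 0.23 (adjusted p = 0.0389). Plin2, a lipid droplet coat protein, had a log2 fold change of -1.21 ± 0.29 (adjusted p = 0.0142), Mid1ip1, an activator of acetyl-CoA carboxylase, one of -1.08 ± 0.31 (adjusted p = 0.0336) and Mbtps1, the protease that makes the first cut in the SREBPs, one of -1.22 ± 0.32 (adjusted p = 0.0222).

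More of the 28 genes were called between the kinds of library than between the lines. The same held for all genes tested, of which 9.51% were called higher and 9.69% lower in ERI-R against Control. In an edgeR fit with the group as a covariate, 13 of 28 genes were lower in the Lyz2-positive libraries and 0 were higher. Of all genes tested, 23% were called lower and 25.9% higher. At an unadjusted p under 0.05 in edgeR, 0 of 28 were higher, beside 4209 of the 14226 genes tested. DESeq2 called 0 of 28 higher, and its share of all genes was not computed. With the replicate number as a block 0 of 28 were called lower (Fasn adjusted p = 0.0528, Mvd 0.0633 and Pmvk 0.149 in edgeR). The share of all genes called with the block was not computed, so this loss cannot be read as particular to the 28 genes. Of the 4 Lyz2-negative libraries, 3 carry number 3. The median log2 fold change was -0.84 over the 28 genes and 0.06 over all genes tested. By role, 10 of 18 sterol enzymes were lower (median -1.13), 2 of 4 regulators and transport genes (-0.70) and 1 of 6 fatty acid enzymes (-0.54). In bulk RNA, fewer tumour cells in a culture and less of a transcript per cell cannot be told apart, and the part of the macrophage transcripts in these differences was not tested.

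The called genes included the successive kinases and the decarboxylase of the mevalonate steps. Mvd measured 21.3, 75.1, 41.7 and 28.9 CPM in the Lyz2-negative libraries of Control, ERI-R, PAC-R and of VIN-R, and from 3.10 to 11.3 CPM (median 9.51) in the 8 Lyz2-positive libraries. The sets did not overlap, and the log2 fold change of Lyz2-positive against Lyz2-negative was -2.27 ± 0.32 (adjusted p = 0.000944). Mvk measured 23.2, 72.5, 36.5 and 24.6 CPM in the 4 Lyz2-negative libraries and 5.22 to 13.2 CPM (median 10.2) in the others, again without overlap (-1.95 ± 0.28, adjusted p = 0.00105). Pmvk was at 28.3, 149.7 and 53.4 CPM in Control 1, ERI-R 3 and PAC-R 3 and 42.3 CPM in VIN-R 3, and reached 29.8 CPM in the Lyz2-positive libraries, so the sets overlapped through Control 1 (-1.66 ± 0.37, adjusted p = 0.00526).

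Further along the pathway, Fdps measured 309, 555, 458 and 352 CPM in the Lyz2-negative libraries and 54.6 to 242 CPM (median 114) in the others (-1.70 ± 0.40, adjusted p = 0.0069). Squalene synthase, Fdft1, measured 178, 149.8, 258 and 205 CPM against 46.5 to 123 CPM (median 63.6), and differed by -1.34 ± 0.29 (adjusted p = 0.00496). Both were without overlap between the sets. Among the enzymes after lanosterol, Ebp, a sterol isomerase, differed by -1.50 ± 0.23 (adjusted p = 0.00133), Tm7sf2 by -1.31 ± 0.30 (adjusted p = 0.00637) and Dhcr7, which carries out a last reduction, by -1.05 ± 0.21 (adjusted p = 0.00339). Acat2, the thiolase that joins acetyl-CoA at the start of the pathway, differed by -1.68 ± 0.43 (adjusted p = 0.00972) and lanosterol synthase, Lss, by -1.21 ± 0.42 (adjusted p = 0.0357). The Lss call was lost without any 1 of Control 1, Control 3, PAC-R 2, PAC-R 3, VIN-R 2 and VIN-R 3.

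Fasn, the fatty acid synthase, was the called gene of the fatty acid branch. It measured 618, 561, 680 and 897 CPM in the Lyz2-negative libraries and 129 to 296 CPM (median 195) in the Lyz2-positive libraries, without overlap. The log2 fold change was -1.76 ± 0.25 (adjusted p = 0.00101). The genes of both SREBPs were lower as well, Srebf1 by -1.01 ± 0.21 (adjusted p = 0.00402) and Srebf2 by -0.93 ± 0.24 (adjusted p = 0.00946), the latter losing its call without PAC-R 3 (-0.76, adjusted p = 0.0626). The 15 genes not called had log2 fold changes from -0.92 for Nsdhl to 0.05 for Sc5d, a sterol desaturase. Hmgcs1, the synthase that makes HMG-CoA, had a log2 fold change of -0.07 ± 0.40 and Scd1 one of 0.03 ± 0.27.

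**Figure D3:**
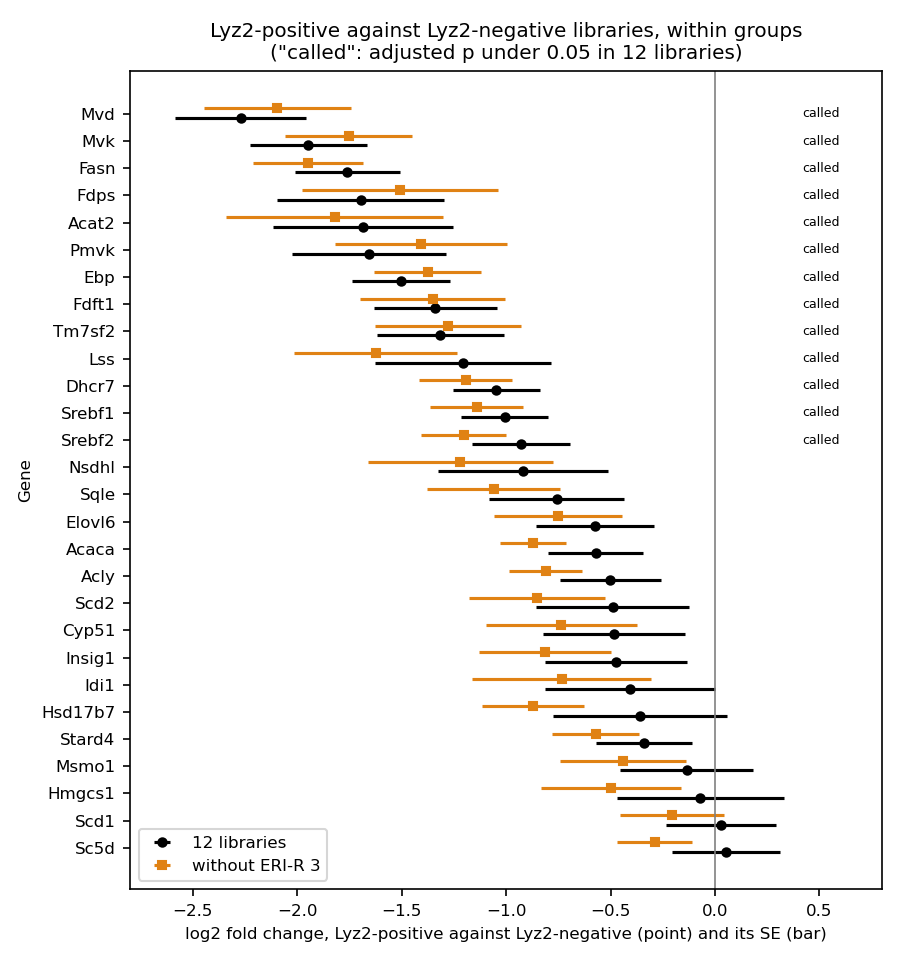
Log2 fold change of each of the 28 genes (vertical axis) in Lyz2-positive against Lyz2-negative libraries within groups (horizontal axis; points are estimates, bars are SEs), from all 12 libraries and without ERI-R 3. The values run from -2.27 for Mvd to 0.05 for Sc5d with 13 genes called lower, and all 28 are negative without ERI-R 3.

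ERI-R 3 differed from the other 3 Lyz2-negative libraries in how the 28 genes split. In Control 1, PAC-R 3 and VIN-R 3, 26 of 28 genes were above both Lyz2-positive libraries of the group, beside 38.8%, 41.8% and 39.1% of all genes tested. In ERI-R 3 this held for 12 of 28 (background 41.8%), and 14 of 28 were below both (background 48.3%), against 0 in Control 1 (40.6%), 1 in PAC-R 3 (46.9%) and 0 in VIN-R 3 (40.3%). Both shares in ERI-R 3 lay near their backgrounds, so its split does not set the 28 genes apart from all genes. ERI-R 3 also had 16.7% of its counts in ribosomal protein genes. The part of this and of transcript length in the split was not tested. The 12 above included Mvk, Pmvk, Mvd, Fdps, Fdft1, Ebp and Fasn, and the 14 below were 8 of 18 sterol enzymes (Hmgcs1, Idi1, Sqle, Lss, Cyp51, Msmo1, Hsd17b7 and Sc5d), Insig1 and Stard4, and 4 of 6 fatty acid enzymes (Acly, Acaca, Scd1 and Scd2). Hsd17b7, a sterol ketoreductase, was at 9.24 CPM in ERI-R 3 and between 22.4 and 68.3 CPM in the other 11 libraries.

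Without ERI-R 3, 19 of 28 genes were lower in the Lyz2-positive libraries and 0 higher, beside 21.2% lower and 25.2% higher of the 14601 genes then tested. The additional calls were Sqle at -1.06 (adjusted p = 0.0231), Nsdhl at -1.22 (adjusted p = 0.049) and Hsd17b7 at -0.87 (adjusted p = 0.0173) among the sterol enzymes. They also took in Stard4 at -0.57 (adjusted p = 0.0466), Acly, which makes cytosolic acetyl-CoA from citrate, at -0.81 (adjusted p = 0.00599) and Acaca at -0.87 (adjusted p = 0.00307). All 28 log2 fold changes were then negative, with a median of -1.10. Over all 12 libraries, 8 of 28 genes had every Lyz2-negative library above every Lyz2-positive one (background 8.17%) and 0 the reverse (13.3%). With ERI-R 3 left out the first number was 14 of 28, beside a background of 13.4%.

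The 28 genes also differed between Lyz2-positive libraries of the same line. Control 3 was below Control 2 in 28 of 28 genes, with a median log2 ratio of -1.06, while 56.7% of all genes tested were below. VIN-R 2 was below VIN-R 1 in 27 of 28 genes, all but Acaca, with a median of -1.18 (background 48.7%). PAC-R 2 was below PAC-R 1 in 26 of 28, all but Tm7sf2 and Acaca, with a median of -0.65 (background 57.2%). ERI-R 2 was below ERI-R 1 in 13 of 28, with a median of 0.04 (background 55.2%). Lyz2 itself was lower in Control 3 than in Control 2 (285 against 712 CPM) and in PAC-R 2 than in PAC-R 1 (509 against 1399 CPM), but higher in VIN-R 2 than in VIN-R 1 (1388 against 182 CPM). It was also lower in ERI-R 2 than in ERI-R 1 (232 against 353 CPM), where 6 of 18 sterol enzymes were below, with a median log2 ratio of 0.24 for these enzymes. The order of most sterol enzymes thus ran with Lyz2 in Control and PAC-R and opposite to it in VIN-R and ERI-R. These are differences between single libraries with no replicate.

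**Figure D4:**
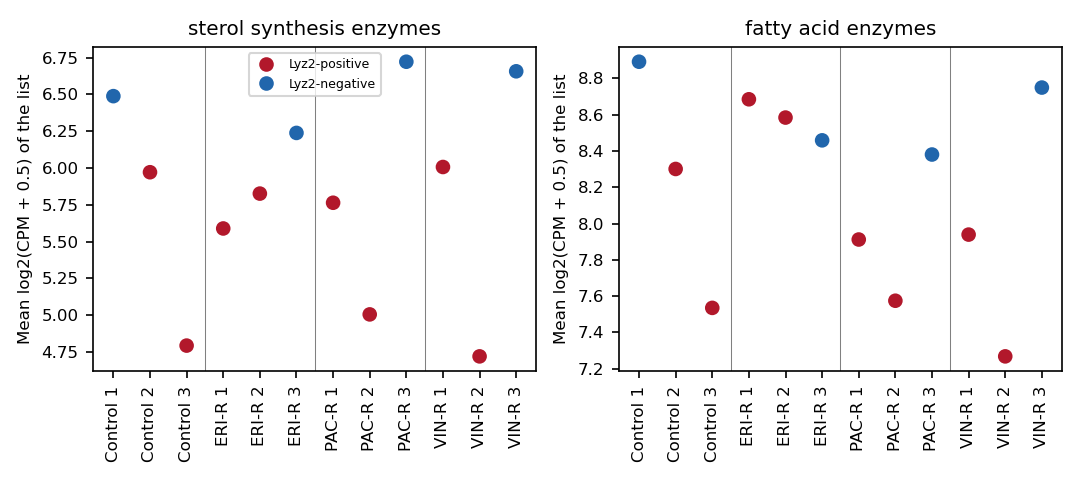
Mean log2(CPM + 0.5) of the 18 sterol enzymes (left) and the 6 fatty acid enzymes (right) in each library (horizontal axis, grey lines part the groups), coloured by kind of library. The sterol mean runs from 4.72 in VIN-R 2 to 6.72 in PAC-R 3, and the 4 Lyz2-negative libraries hold the highest sterol means, at 6.24 or more. The fatty acid means of the 2 kinds of library overlap. Lyz2-positive ERI-R 1 and ERI-R 2, at 8.69 and 8.58, lie above Lyz2-negative ERI-R 3 at 8.46 and PAC-R 3 at 8.38. Lyz2-negative Control 1 and VIN-R 3 are highest, at 8.89 and 8.75.

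The differences between the kinds of library moved with transcript length. Of the 7 genes with transcripts up to 2000 bases, 6 were lower in the Lyz2-positive libraries, with a median log2 fold change of -1.66 beside -0.32 over all genes of that length, of which 33.4% were lower. Of the 13 genes between 2000 and 4000 bases 6 were lower, with a median of -0.92 beside 0.14 (20% lower). Of the 8 genes over 4000 bases 1 was lower, Fasn, with a median of -0.50 beside 0.47 (8.54% lower). In each length class the median of these genes was thus below that of all genes of that class. Without ERI-R 3 the medians were -1.41, -1.14 and -0.83, beside -0.16, 0.07 and 0.33. Spearman's rho between length and log2 fold change was 0.46 over the 28 genes and 0.30 over all 14226 genes, a description across genes that share the same libraries. The part of transcript length in the differences was not tested.

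**Figure D5:**
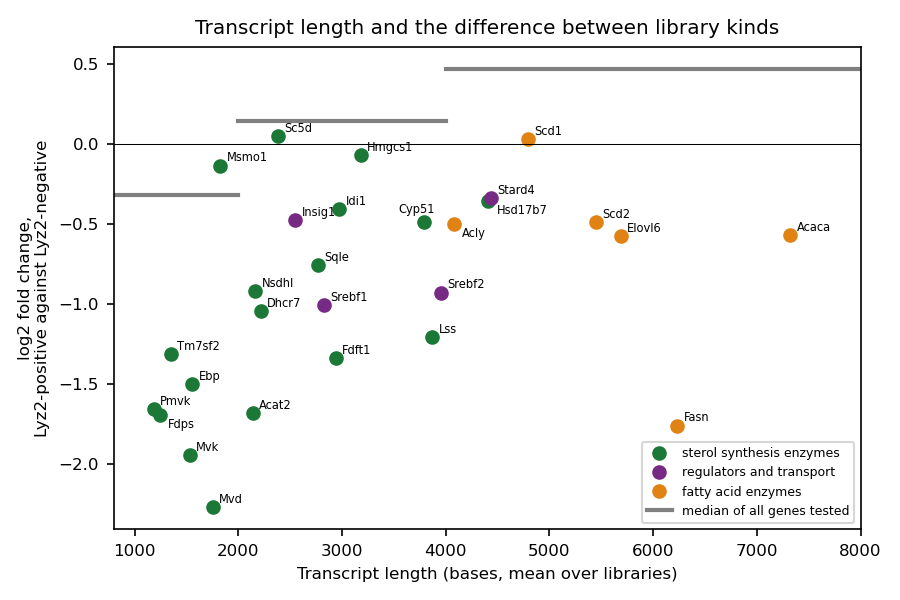
Log2 fold change of Lyz2-positive against Lyz2-negative libraries (vertical axis) by transcript length in bases (horizontal axis) for the 28 genes, coloured by role, with grey bars for the median of all genes tested in each length class. Mvd, Mvk, Fdps and Pmvk lie at the short end, at -1.66 or lower, and Fasn is the long gene that lies as low, at -1.76.

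Promoters are shown for 3 genes called lower in the Lyz2-positive libraries (Mvd, Ebp and Fasn) and for Hmgcs1, whose log2 fold change there was -0.07, to set genes that changed beside 1 that was not called. RefSeq promoter windows of GRCm38.p6 were matched for 22 of the 28 genes, with 27 windows in all. The 250 bases before each start were searched on both strands for TCACNCCAC, a form of the sterol regulatory element, for the CCAAT box, for GGGCGG and for CACGTG. TCACNCCAC was found in 1 of 27 windows, that of Hmgcs1, and in 1.05% of 32851 promoters. CCAAT was in 19 of 27 windows (70.4%) and in 33.8% of all promoters, GGGCGG in 20 of 27 (74.1%) and in 32.7%, and CACGTG in 4 of 27 (14.8%) and in 6.02%. The 150 bases before the start are printed 5′ to 3′ on the strand of the gene, with TCACNCCAC and CCAAT on either strand (CCAAT reads ATTGG on the other) in capitals. They lie at chr13:119690201-119690350 (plus strand) for Hmgcs1, chr8:122443423-122443572 (minus) for Mvd, chrX:8193513-8193662 (minus) for Ebp and chr11:120824548-120824697 (minus) for Fasn.
Hmgcs1: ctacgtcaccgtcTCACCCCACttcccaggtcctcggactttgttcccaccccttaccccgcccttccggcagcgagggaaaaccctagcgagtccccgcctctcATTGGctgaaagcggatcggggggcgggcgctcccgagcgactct
Mvd: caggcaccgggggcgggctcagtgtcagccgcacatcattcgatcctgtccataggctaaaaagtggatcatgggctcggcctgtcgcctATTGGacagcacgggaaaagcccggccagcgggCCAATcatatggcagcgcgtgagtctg
Ebp: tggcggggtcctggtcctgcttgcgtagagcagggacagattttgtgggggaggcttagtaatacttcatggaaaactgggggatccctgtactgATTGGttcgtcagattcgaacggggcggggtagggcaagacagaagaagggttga
Fasn: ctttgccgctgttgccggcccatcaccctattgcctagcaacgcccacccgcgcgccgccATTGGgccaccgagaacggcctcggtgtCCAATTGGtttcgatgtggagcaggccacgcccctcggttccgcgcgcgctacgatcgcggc
The element of Hmgcs1 lay 137 bases before its start, and its nearest CCAAT box 45 bases before it. Mvd had CCAAT boxes at 60 and 27 bases, Ebp at 170 (outside the printed stretch) and 55 bases, and Fasn at 90, 62 and 59 bases before the start, the last 2 overlapping on opposite strands. The genes with a CCAAT box included Hmgcs1, Sc5d and Msmo1, which were not called between the kinds of library, as well as Mvk, Mvd, Pmvk and Fasn, which were.

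Among the related genes outside the 28, the other sterol genes were more often higher than lower between the kinds of library. Of 32 tested, 18 were higher in the Lyz2-positive libraries and 6 lower, with a median log2 fold change of 0.67, and of 46 tested lipid genes 9 were higher and 12 lower, with a median of -0.07. The background of this comparison was 25.9% higher and 23% lower.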

How the data were processed

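Polyadenylated RNA of 12 samples (200 ng, Kapa mRNA Hyperprep, paired ends of 76 bases, per the labels) was measured. RSEM 1.3.2, STAR 2.7.2b, cutadapt 2.4 and bcl2fastq 2.20.0.422 were used with GRCm38, per the submitters' processing notes. The sources used here do not give roles, annotation or strandedness, so overlapping antisense genes cannot be told apart. The authors' tables hold, per the file headers, RSEM expected counts (estimated reads per gene, not normalized), TPM (used for levels between genes) and transcript lengths. Gene positions, where used, were from GENCODE M21.

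Expected counts were rounded (15.3% of values above 0 changed), filtered with filterByExpr and TMM-scaled. In R 4.3.3, a robust quasi-likelihood fit of edgeR 4.0.16 (limma 3.58.1) held all 12 libraries with 4 group means. Residual degrees of freedom were 8, prior ones 2.64 (median), and the common biological coefficient of variation was 0.591. The fit gave 6 comparisons of lines; a second fit added the kind of library, split at 100 CPM of Lyz2. A split at 10 CPM of Csf1r gave the same sets. Calls took all tested genes into one Benjamini-Hochberg adjustment, at 0.05. The script was tested on simulated data with a smaller spread than these libraries and no split by kind of library. That test therefore does not show how well changes are recovered at the spread of these libraries. Alternatives were DESeq2 1.42.0, other scalings and filters, subsets of libraries and the replicate number as a block.

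The 28 genes, the lists of related genes and the split were chosen with earlier results of these data known. Of related genes, up to 3 rises and 3 falls per line against Control were named, among called genes with at least 1 CPM in the higher group; 1 listed gene was not matched.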

Additional observations from a re-analysis of the deposited data

How the results depend on the processing

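The alternatives to the edgeR quasi-likelihood fits reversed no direction that was called among the 28 genes, but moved the numbers of calls. Shares of all genes called are given above for the fit with the term and for the 8 libraries. They are also given for the kinds of library without ERI-R 3, and were not computed for the other alternatives. The number higher in ERI-R against Control was 0, and became 2 with DESeq2, 4 with the kind of library as a term, 2 in the 8 Lyz2-positive libraries and 0 to 1 with each library left out in turn. Against PAC-R it was 1, and became 2 with DESeq2, 0 with no filter, 0 with only the groups compared, 3 with the term, 3 in the 8 libraries and 0 to 2 with a library left out. Against VIN-R it was 1, and became 0 with no filter, 0 with only the groups compared, 3 with the term, 3 in the 8 libraries and 0 to 1 with a library left out; the number lower was 0, and became 1 with DESeq2 and 0 to 1 with a library left out. The number lower in Lyz2-positive libraries was 13, and 11 to 19 with a library left out. The numbers for PAC-R and VIN-R against Control and for PAC-R against VIN-R were 0 under each alternative run. Over single genes, 475 values kept their side of the threshold, 27 gained a call and 35 lost one; the cause was not tested.

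With the replicate number as a block, 0 of 28 were called lower in Lyz2-positive libraries (edgeR, Mvd -2.14 with adjusted p = 0.0633, Fasn -1.79 with adjusted p = 0.0528). The share of all genes called with the block was not computed. Of the 4 Lyz2-negative libraries, 3 carry number 3. Deviations of same-numbered libraries of different groups correlated from -0.88 to 0.93, over 0.1 in 10 of 18 pairs. Those of differently numbered libraries correlated from -0.93 to 0.93, over 0.1 in 17 of 36 pairs. These deviations include the difference between the kinds of library, so they cannot decide whether the number pairs the samples. The block changed no number of calls between lines. With 3 libraries per group and these SEs, 2-fold changes were not detectable for many of the genes. Larger ones also went uncalled, such as Pmvk at a log2 fold change of 1.89 in ERI-R against Control. Pmvk stood at 149.7 CPM in ERI-R 3 but at 29.8 and 27.6 CPM in ERI-R 1 and ERI-R 2. With each library left out in turn its log2 fold change ran from 0.76 to 2.36.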

Other observations

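Some related sterol genes differed between the kinds of library in either direction; those given here were chosen after their values were seen. Abca1, which exports cholesterol to apolipoproteins, measured 7.22, 0.945, 4.78 and 7.45 CPM in the Lyz2-negative libraries (Control 1 and replicate 3 of ERI-R, PAC-R and VIN-R) and 58.9 to 215 CPM in the Lyz2-positive libraries, without overlap (edgeR log2 fold change 4.68 ± 0.52, adjusted p = 0.000422). Abcg1, a second exporter, measured at most 1.49 CPM against 3.93 to 36.5 CPM (4.55 ± 0.78, adjusted p = 0.00192). Mylip, which marks lipoprotein receptors for degradation, measured 2.52 to 5.78 CPM against 9.75 to 25.6 CPM (1.78 ± 0.31, adjusted p = 0.00201). Ch25h, which makes an oxysterol, measured 0 to 0.0746 CPM against 1.59 to 25.4 CPM. Macrophages are known to express several of these genes, and the macrophage marker sums given above moved with them; their part was not tested.

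In the opposite direction, Scarb1, a lipoprotein receptor that moves cholesterol, measured 54.6 to 71.8 CPM in the Lyz2-negative and 22.5 to 41.6 CPM in the Lyz2-positive libraries, without overlap (edgeR log2 fold change -0.99 ± 0.21, adjusted p = 0.00419). Scap, the escort of the SREBPs, had a log2 fold change of -1.03 ± 0.18 (adjusted p = 0.00184), Fads2, a fatty acid desaturase, one of -1.38 ± 0.32 (adjusted p = 0.00657) and Tmem97 one of -1.18 ± 0.27 (adjusted p = 0.00591).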
